A study of Mus musculus with 4 samples.

Results

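Peaks of accessible chromatin were examined at 43 genes of the BMP, TGF-beta and SMAD pathway, out of 21887 protein-coding genes on chromosomes 1 to 19, X and Y. The 43 genes were listed by name for their role in the pathway, and the rule itself used no accessibility value. A peak was given to a gene if its summit, the base with the highest signal in the peak, fell inside the gene or within 10 kb of either end. Accessibility was measured by ATAC-seq, whose transposase tags open DNA in nuclei, in hearts of newborn mice (postnatal day 0). There were 2 wild-type (WT) libraries and 2 libraries from miR-187 mice, called rep 1 and rep 2 (replicates 1 and 2) of each group, each made from 50000 cells per the labels. The miR-187 mice carried an extra copy of the mouse microRNA gene at the Rosa26 locus, placed there with CRISPR/Cas9 on a C57BL/6J background and driven by the promoter and enhancer of Tek (Tie2), which is active in endothelium and also in part of the blood lineage. The study gives the knockin animals of its mouse ATAC-seq as homozygous (KI/KI). The labels state neither zygosity nor whether the 2 libraries of a group came from separate animals, so the spread between them may be technical. The study describes endothelial cells caught with beads against CD31, but the labels name only heart tissue.

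BMPs, TGF-betas and activins are secreted ligands that bring together a type I and a type II receptor kinase, and the type I receptor then phosphorylates receptor SMADs. BMP signals pass mainly through SMAD1, SMAD5 and SMAD9 and TGF-beta and activin signals mainly through SMAD2 and SMAD3, and both sets enter the nucleus with SMAD4, where the Id genes are typical BMP targets. In the developing heart these signals act on the endocardium, where they drive the change from endothelial to mesenchymal cells that forms the cushions of valves and septa.

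For 6 of these genes, a sequence window of 250 bases before to 50 bases after an annotated start was crossed by overlapping peaks of 2 or more libraries. These windows are shown because peaks of more than 1 library cover the same bases in them. They belong to 6 of the 18 regions with peaks of 2 or more libraries, and the other regions, that of Ski among them, are given without sequence. Sequences are from RefSeq (assembly GRCm38.p6), 5′ to 3′ on the strand of the gene, and the capitals mark the bases covered by the peaks of every library named for that gene. For Smad3 these were WT reps 1 and 2 and miR-187 rep 1, for Acvr1b WT rep 2 and miR-187 rep 1, for Tgif1 WT rep 1 and miR-187 rep 1, and for Tgfbr1, Id2 and Id3 both WT libraries. The windows were chr9:63757945-63758244 on the minus strand for Smad3, chr15:101173822-101174121 on the plus strand for Acvr1b, chr17:70851685-70851984 on the minus strand for Tgif1, chr4:47352972-47353271 on the plus strand for Tgfbr1, chr12:25096043-25096342 on the minus strand for Id2 and chr4:136143572-136143871 on the plus strand for Id3.
Smad3: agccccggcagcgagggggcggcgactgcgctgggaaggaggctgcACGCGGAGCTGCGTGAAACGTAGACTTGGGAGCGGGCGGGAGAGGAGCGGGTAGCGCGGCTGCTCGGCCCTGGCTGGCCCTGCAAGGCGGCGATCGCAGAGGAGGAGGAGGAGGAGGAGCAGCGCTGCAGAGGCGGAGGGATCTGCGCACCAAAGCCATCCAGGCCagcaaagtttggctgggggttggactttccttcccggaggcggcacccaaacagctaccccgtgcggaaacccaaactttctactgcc
Acvr1b: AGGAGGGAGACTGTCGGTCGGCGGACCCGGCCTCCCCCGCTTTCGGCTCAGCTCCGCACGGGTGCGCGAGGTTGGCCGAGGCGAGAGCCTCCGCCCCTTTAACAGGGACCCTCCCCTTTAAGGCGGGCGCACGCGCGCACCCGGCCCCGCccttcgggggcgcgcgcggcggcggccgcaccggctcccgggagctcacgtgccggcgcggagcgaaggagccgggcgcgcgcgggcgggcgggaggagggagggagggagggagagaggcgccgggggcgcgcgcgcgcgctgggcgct
Tgif1: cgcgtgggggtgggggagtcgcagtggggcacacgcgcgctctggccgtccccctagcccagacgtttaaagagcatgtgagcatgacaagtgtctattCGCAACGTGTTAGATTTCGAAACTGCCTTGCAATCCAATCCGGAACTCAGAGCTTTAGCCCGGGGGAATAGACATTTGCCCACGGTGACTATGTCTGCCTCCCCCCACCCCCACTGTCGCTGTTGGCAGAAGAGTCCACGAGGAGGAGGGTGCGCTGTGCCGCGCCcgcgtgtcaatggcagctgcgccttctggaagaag
Tgfbr1: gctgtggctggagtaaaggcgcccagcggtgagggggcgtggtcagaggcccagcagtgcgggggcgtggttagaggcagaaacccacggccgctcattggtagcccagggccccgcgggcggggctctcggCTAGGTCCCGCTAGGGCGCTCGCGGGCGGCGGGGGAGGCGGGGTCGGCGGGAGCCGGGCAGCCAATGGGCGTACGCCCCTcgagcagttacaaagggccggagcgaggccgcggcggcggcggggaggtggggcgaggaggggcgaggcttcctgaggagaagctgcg
Id2: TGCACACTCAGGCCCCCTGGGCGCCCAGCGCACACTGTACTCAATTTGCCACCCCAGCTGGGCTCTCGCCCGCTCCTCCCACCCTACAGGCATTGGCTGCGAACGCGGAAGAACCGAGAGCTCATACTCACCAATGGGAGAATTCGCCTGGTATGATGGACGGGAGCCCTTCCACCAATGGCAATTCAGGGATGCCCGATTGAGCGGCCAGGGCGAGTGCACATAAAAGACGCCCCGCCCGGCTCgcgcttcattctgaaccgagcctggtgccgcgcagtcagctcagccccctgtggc
Id3: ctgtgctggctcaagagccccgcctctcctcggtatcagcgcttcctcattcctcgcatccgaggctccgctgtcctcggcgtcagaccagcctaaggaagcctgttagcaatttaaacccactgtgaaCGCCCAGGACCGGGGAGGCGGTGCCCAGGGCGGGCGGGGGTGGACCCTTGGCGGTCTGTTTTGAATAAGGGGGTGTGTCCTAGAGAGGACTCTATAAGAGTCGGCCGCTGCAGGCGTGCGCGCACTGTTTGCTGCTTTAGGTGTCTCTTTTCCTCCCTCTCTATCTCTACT
The part common to the named libraries was 166 bp at Smad3, 150 bp at Acvr1b, 166 bp at Tgif1, 80 bp at Tgfbr1, 245 bp at Id2 and 171 bp at Id3. The windows were rich in G and C, from 60.0% at Id3 to 79.7% at Acvr1b.

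These windows were searched on both strands for fixed letters, none of which contains another, although matches may overlap in place. The GC box GGGCGG matched 4 times in the Acvr1b window, 2 times each in those of Smad3, Tgfbr1 and Id3, and 1 time in that of Id2, and was not found at Tgif1. It was present in 46.2% of all 21263 promoter windows and in 27 of the 42 windows of the pathway genes (64.3%). The CCAAT box (CCAAT) matched 3 times at Id2, all in the part open in both WT libraries, 2 times at Tgfbr1 and 1 time at Tgif1. It was present in 38.2% of all windows and in 15 of the 42 pathway windows (35.7%). Of letters that SMAD proteins are known to bind, the GC-rich GGCGCC was present 1 time each at Acvr1b, Tgfbr1 and Id2 (15.3% of all windows, 11 of 42 pathway windows, 26.2%), and CAGACA 1 time at Tgif1 (18.9% of all windows, 9 of 42 pathway windows, 21.4%). The palindrome GTCTAGAC was in none of the 6 windows (0.226% of all windows, 1 of 42 pathway windows). TATAAA (12.6% of all windows, 4 of 42 pathway windows, 9.52%) and the AP-1 letters TGANTCA (6.99%, 0 of 42 pathway windows) were also in none of the 6. A match describes the letters only.

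The 4 peak lists differed in length and depth before any gene was considered. They held 9452 peaks in WT rep 1, 12298 in WT rep 2, 7496 in miR-187 rep 1 and 1483 in miR-187 rep 2. Read totals were not used here, and the depth was inferred from the values of the peaks as a background density of 1751, 5227, 2016 and 1032 reads per Mb in the same order. Of all protein-coding genes, 38.0%, 47.1%, 33.5% and 6.75% had a peak in the same order. Endothelial marker genes had a peak in 6, 10, 7 and 2 of 15 cases (40.0%, 66.7%, 46.7% and 13.3%), with the CD31 gene Pecam1 in the first 3 libraries and Cdh5 in all but miR-187 rep 1, and Emcn in none. The other marker lists had genes with a peak too, cardiomyocyte genes in 4, 4, 3 and 0 of 12 cases (33.3%, 33.3%, 25.0% and 0%), fibroblast genes in 4, 5, 1 and 0 of 7, immune genes in 4, 3, 2 and 0 of 5, mural genes in 1, 0, 0 and 1 of 5 and erythroid genes in 1, 1, 0 and 0 of 4. The endothelial share was above that of all genes in each library, by the least in WT rep 1. The endothelial windows were longer, with a median of 66.2 kb against 37.2 kb. Counted per length they held 5.06, 12.3, 5.78 and 1.44 peaks per Mb, against 5.97, 8.10, 4.93 and 0.872 over all genes, so below in WT rep 1. Within 1 kb of a gene end the endothelial shares were 20.0%, 26.7%, 13.3% and 6.67%. These were below the 21.0%, 29.9% and 19.4% of all genes in all but miR-187 rep 2 (3.07%). The fibroblast share (57.1% and 71.4% in WT, 14.3% and 0% with miR-187) was above that of all genes in WT and below it with miR-187. The immune share was above that of all genes in all but miR-187 rep 2. Fibroblast shares exceeded the endothelial ones in both WT libraries, and the immune share did so in WT rep 1. Cardiomyocyte and erythroid shares were below that of all genes in each library, and the mural share was above it only in miR-187 rep 2. Myh6, Myh7, Actc1, Nppa, Ttn, Nkx2-5, Tcf21, Lum, Pdgfrb, Rgs5, Myh11, Hba-a1 and Slc4a1 had a peak in no library. A change in the number of cells of a type and a change within each cell cannot be told apart in these libraries.

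The main comparison asked whether fewer pathway genes carried accessible chromatin with miR-187. Of the 43 genes, 25 had at least 1 peak in WT rep 1, 30 in WT rep 2, 22 in miR-187 rep 1 and 7 in miR-187 rep 2. Both miR-187 counts were below both WT counts, but the 2 miR-187 libraries differed from each other by more than miR-187 rep 1 differed from either WT library. WT libraries had a mean of 27.5 ± 3.54 genes and miR-187 libraries one of 14.5 ± 10.6 (SD, n = 2 each). The difference of -13.0 genes had a 2-sided exact permutation p of 0.333. That is the smallest p the 6 assignments of 4 libraries to 2 groups allow, so no group difference here can pass 0.05 by this test. Without miR-187 rep 2 the difference was -5.50 genes.

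The order of the counts was that of the whole lists. Over all protein-coding genes the share with a peak was 38.0% in WT rep 1, 47.1% in WT rep 2, 33.5% in miR-187 rep 1 and 6.75% in miR-187 rep 2. The pathway genes had 58.1% (95% Wilson interval 43.3% to 71.6%), 69.8% (54.9% to 81.4%), 51.2% (36.8% to 65.4%) and 16.3% (8.12% to 30.0%). These shares were above the background in each library, and the intervals cover counting error only. The windows of the pathway genes were also longer, with a median of 66.2 kb against 37.2 kb for all genes. Counted per length, the pathway windows held 7.97, 12.9, 6.94 and 1.80 peaks per Mb, which was 1.34, 1.59, 1.41 and 2.06 times the density over all gene windows.

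When each list was cut to its 1483 strongest peaks, the length of the shortest list, the direction turned. The pathway genes with a peak were then 2 in WT rep 1, 2 in WT rep 2, 4 in miR-187 rep 1 and 7 in miR-187 rep 2, a difference of 3.50 genes (exact permutation p of 0.333). A wider list of 64 other pathway genes, described below, had 5, 4, 7 and 4 at this cut. The share over all genes at this cut is not given here. Counts at equal list length, here and below, can therefore not be read as particular to the pathway genes. Thinning every library to the inferred depth of the shallowest one, an alternative chosen after seeing the data, gave expected counts of 14.9, 6.33, 12.8 and 7.0 genes and a difference of -0.720. Without WT rep 1, WT rep 2, miR-187 rep 1 or miR-187 rep 2 the thinned difference was 3.56, -5.0, -3.61 or 2.17, so its sign rested on single libraries. List length had the same order as the counts over the 4 libraries. The inferred depth did not, since WT rep 1 (1751 reads per Mb) had more genes with a peak than miR-187 rep 1 (2016 reads per Mb). The part of depth and of list length in the difference was not separated from that of miR-187.

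**Figure D1:**
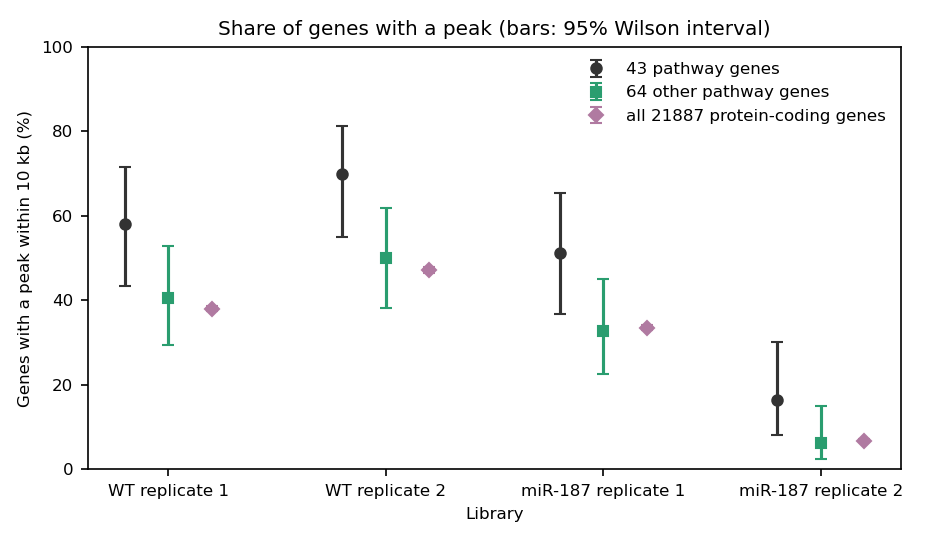
Share of genes with a peak summit inside the gene or within 10 kb (vertical axis, percent) in each library (horizontal axis) for the 43 pathway genes, 64 other genes of the pathway and all 21887 protein-coding genes. Points are shares and bars are 95% Wilson intervals. The pathway genes lie above all genes in each library, and every series is lowest in miR-187 rep 2.

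There were 31, 50, 27 and 7 peaks at the pathway genes, with a WT mean of 40.5 ± 13.4 and a miR-187 mean of 17.0 ± 14.1 (SD, n = 2 each, difference -23.5, exact permutation p of 0.333). With lists of equal length this difference turned to 3.50, at thinned depth it was -1.38, and without miR-187 rep 2 it was -13.5. The pathway windows were longer than those of all genes (median 66.2 kb against 37.2 kb). Of the 43 genes, 5 had no peak in any library (11.6%, against 41.5% of all genes). They were Bmp2 and Bmp10, which encode myocardial BMP ligands, Gdf2, which encodes the circulating ligand BMP9, Grem1, a secreted BMP antagonist, and Bmper, a secreted modulator of BMP activity. A further 8 genes had a peak in 1 library, 17 in 2, 10 in 3 and 3 in all 4. The 3 in all 4 libraries were Smad9, Ski and Bambi (6.98%, against 3.36% of all genes). With a gene window of 2 kb only Ski had a peak in all 4 libraries, with Bambi in 3 and Smad9 in 0.

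**Figure D2:**
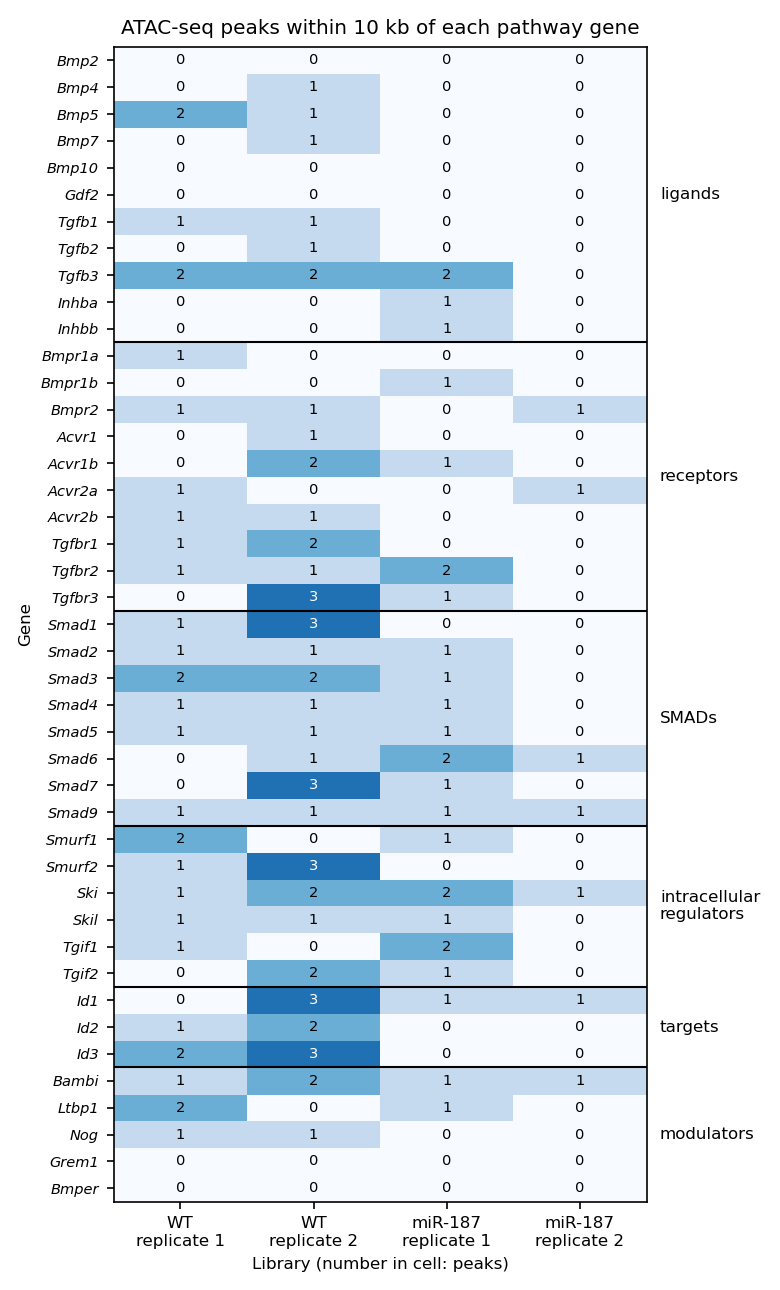
Number of peaks (number and shade of each cell) at each of the 43 pathway genes (vertical axis, grouped by role) in each library (horizontal axis). Rows for Bmp2, Bmp10, Gdf2, Grem1 and Bmper are at 0 throughout, and only Bmpr2, Acvr2a, Smad6, Smad9, Ski, Id1 and Bambi have a peak in miR-187 rep 2.

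Genes with a peak in both WT libraries and in neither miR-187 library numbered 9 of 43 (20.9%, against 9.04% of all genes). They were the ligand genes Bmp5 and Tgfb1, the receptor genes Acvr2b and Tgfbr1, Smad1, the ubiquitin ligase gene Smurf2, the target genes Id2 and Id3, and Nog, which encodes the BMP antagonist noggin. The reverse pattern was found at 0 of 43 genes (background 0.169%). The same peak position was behind the WT pattern at only 4 of the 9, Tgfbr1, Id2, Id3 and Nog, while at the other 5 the 2 WT libraries had peaks at different places. With lists of equal length the number was 0. It was 2 when peaks needed a −log10 q, the negative logarithm of the false discovery rate, of 5 or more.

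The counts given for each role are to be read against the 38.0%, 47.1%, 33.5% and 6.75% of all genes with a peak. Among the 11 ligand genes, 3, 6, 3 and 0 had a peak (27.3%, 54.5%, 27.3% and 0%) in WT reps 1 and 2 and miR-187 reps 1 and 2 (difference -3.0, exact permutation p of 0.667, n = 2 each). With lists of equal length this difference was 0. Tgfb3, one of the 3 TGF-beta ligands, was the ligand gene with overlapping peaks. One region at its boundary had a fold enrichment, the signal at the summit over the local background as given by the peak caller, of 6.62 in WT rep 2 and 4.52 in miR-187 rep 1, with summits 15 bp apart (chr12:86078828-86079182 and chr12:86078857-86079066). A second region, with summits 522 and 486 bp outside the gene, had a fold of 5.93 in WT rep 1 and 6.10 in miR-187 rep 1 (chr12:86079449-86079664 and chr12:86079330-86079657). Thus miR-187 rep 1 had both Tgfb3 regions, and each WT library had 1 of them. The other Tgfb3 peaks, at 8.70 kb in WT rep 1 and 9.28 kb in WT rep 2, lay within 1 kb of Ttll5 and of Ift43, so they may belong to those genes.

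No other ligand gene had a region in 2 libraries. Bmp5 had 2 peaks in WT rep 1, of fold 3.57 and 3.70, and 1 in WT rep 2 of fold 3.77, all inside the gene and from 20.0 to 58.1 kb from its nearest end. These were weak peaks, below the 3rd percentile of −log10 q in their lists. Tgfb1 had a peak 2.19 kb inside the gene in WT rep 1 (fold 4.81, chr7:25689042-25689523) and a peak 0.783 kb beyond its end in WT rep 2 (fold 4.55, chr7:25705695-25706048). Bmp4 (fold 5.06, 771 bp wide), Bmp7 (4.55) and Tgfb2 (4.52) had 1 peak each, all in WT rep 2, the deepest library. The activin subunit genes Inhba (fold 5.92) and Inhbb (4.94) had 1 peak each, both in miR-187 rep 1, with summits 481 and 415 bp downstream of a start.

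Of the 10 receptor genes, 6, 7, 4 and 2 had a peak (60.0%, 70.0%, 40.0% and 20.0%, difference -3.50, exact permutation p of 0.333, n = 2 each). With lists of equal length the counts were 0, 0, 0 and 2, and the difference turned to 1.00. Tgfbr1, the type I TGF-beta receptor gene, had a peak at its start in both WT libraries, of fold 4.21 in WT rep 1 (chr4:47353104-47353401) and 5.65 in WT rep 2 (chr4:47352795-47353183). The overlap was 80 bp and the summits were 264 bp apart, and only the WT rep 1 peak lay over the start itself, the WT rep 2 peak ending before it. Neither miR-187 library had a peak at Tgfbr1. Tgfbr2, the type II TGF-beta receptor gene, had a region about 30 kb inside the gene, with a fold of 4.26 in WT rep 1 and 6.04 in miR-187 rep 1 (chr9:116145141-116145340 and chr9:116145173-116145692). Here the miR-187 library had the higher fold and the wider peak, 520 against 200 bp.

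Acvr1b, which encodes the activin type I receptor ALK4, had a start region with similar values in 1 library of each group. The fold was 4.27 in WT rep 2 (chr15:101173679-101173971) and 4.21 in miR-187 rep 1 (chr15:101173808-101174007), with summits 126 bp apart. Bmpr2, the type II BMP receptor gene, had neighbouring peaks ahead of its start in both WT libraries, 756 bp away in WT rep 1 (fold 5.70) and 468 bp away in WT rep 2 (fold 5.06), which did not overlap. Its only miR-187 peak, in rep 2, was 69643 bp downstream of the start (fold 5.65). Acvr2a, a type II activin receptor gene, likewise had a WT rep 1 peak 511 bp before the start (fold 4.76) and a miR-187 rep 2 peak inside the gene (fold 6.63). Both therefore counted as genes with a peak in each group, through different positions.

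The remaining receptor peaks were each in 1 library. Acvr2b had a peak inside the gene in WT rep 1 (fold 4.35) and another, 2.73 kb beyond its end, in WT rep 2 (fold 3.59), within 1 kb of the neighbouring gene Exog. Bmpr1a, a type I BMP receptor gene, had 1 in WT rep 1 that lay near Mmrn2 (fold 3.70), and Bmpr1b had 1 in miR-187 rep 1 (fold 5.92). Acvr1, which encodes the BMP receptor ALK2, had 1 in WT rep 2 (fold 4.36). Tgfbr3, the betaglycan co-receptor gene, had 3 in WT rep 2 (fold 3.99, 5.10 and 5.80) and 1 in miR-187 rep 1 (fold 5.09). Further single peaks were found in WT rep 2 at Acvr1b (fold 3.33), Tgfbr1 (4.62) and Tgfbr2 (4.17), and in miR-187 rep 1 at Tgfbr2 (6.25).

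Of the 8 SMAD genes, 6, 8, 7 and 2 had a peak (75.0%, 100%, 87.5% and 25.0%, difference -2.50, exact permutation p of 0.667, n = 2 each). Without miR-187 rep 2 the difference was 0, and with lists of equal length it turned to 2.00. With the full lists, miR-187 rep 1 had 1 SMAD gene more with a peak than WT rep 1. Within 1 kb of a gene end the counts were 3, 6, 6 and 0 genes (37.5%, 75.0%, 75.0% and 0%, against 21.0%, 29.9%, 19.4% and 3.07% of all genes). At Smad3, a TGF-beta SMAD, the start region whose sequence is printed above had peaks of 3 libraries. Its fold was 6.38 in WT rep 1 (chr9:63757979-63758198), 4.76 in WT rep 2 (chr9:63758033-63758473) and 7.26 in miR-187 rep 1 (chr9:63757970-63758398). The value in miR-187 rep 1 was the highest fold of all the pathway peaks in that library, at the 94.6th percentile of its −log10 q, and its summit was 1 bp from that of WT rep 1. A second Smad3 region, 51.6 kb inside the gene, was found in WT rep 1 (fold 5.0) and WT rep 2 (fold 4.51) but not with miR-187.

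Smad4, the common SMAD of both branches, had a region outside its boundary in 3 libraries. The fold was 4.89 in WT rep 1, 3.70 in WT rep 2 and 4.88 in miR-187 rep 1, so WT rep 1 and miR-187 rep 1 were nearly equal. Smad5, a BMP SMAD, had a start region in WT rep 1 (fold 5.11) and miR-187 rep 1 (fold 4.17). A separate peak in WT rep 2 (fold 5.86) lay 0.770 kb inside the gene, 112 bp downstream of another annotated start. Smad2, a TGF-beta SMAD, had a region 1.31 kb inside the gene in both WT libraries (fold 5.77 and 3.68), whereas the miR-187 rep 1 peak lay 0.234 kb inside it (fold 5.88). Smad1, a BMP SMAD with WT peaks alone, had 1 peak in WT rep 1 (fold 4.44) and 3 in WT rep 2 (fold 4.20, 4.10 and 4.32), and none overlapped. The last of these was at the start, 16 bp from it.

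The inhibitory SMAD genes Smad6 and Smad7 had no shared region. At Smad7 the miR-187 rep 1 peak was 0.639 kb outside the gene with a fold of 6.95, at the 96.0th percentile of its list, and the WT rep 2 peaks had a fold of 3.77, 3.65 and 4.78. Smad6 had 1 peak in WT rep 2 (fold 3.3), 2 in miR-187 rep 1 (fold 5.79 and 4.61) and 1 in miR-187 rep 2 (fold 4.73), and neither gene had a peak in WT rep 1. Smad9, a BMP SMAD, had 1 peak in each library, 6.07 to 6.47 kb beyond the gene (fold 5.38, 6.03, 5.36 and 5.88). This region lay within 1 kb of Rfxap, a gene of an MHC class II transcription factor, and so may belong to that gene. The WT summits were at the same base, and the miR-187 rep 1 peak overlapped those of WT rep 1 and rep 2 by 301 and 330 bp. The miR-187 rep 2 peak overlapped only that of WT rep 2, by 4 bp.

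Of the 6 intracellular regulators, 5, 4, 5 and 1 had a peak (83.3%, 66.7%, 83.3% and 16.7%, difference -1.50, exact permutation p of 1.00, n = 2 each). Without miR-187 rep 2 this difference turned to 0.500. Ski, a nuclear corepressor of SMADs, had the one region at which the peaks of all 4 libraries overlapped one another. It lay upstream of the gene, with summits 761, 870, 854 and 828 bp from the start in WT reps 1 and 2 and miR-187 reps 1 and 2. The fold was 4.90 (chr4:155223175-155223657), 6.08 (chr4:155223208-155223596), 4.78 (chr4:155223285-155223505) and 6.02 (chr4:155223272-155223471). The 2 values of each group spanned nearly the same range, so the groups overlapped. The −log10 q was 4.22, 10.3, 3.66 and 3.61, highest in the deepest library. Ski had further single peaks inside the gene in WT rep 2 (fold 4.03) and beyond its end in miR-187 rep 1 (fold 4.24).

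Tgif1, a homeodomain corepressor gene, had a start region in WT rep 1 (fold 4.35, chr17:70851720-70851923) and miR-187 rep 1 (fold 4.22, chr17:70851661-70851885), with summits 59 bp apart, and a further peak in miR-187 rep 1 (fold 4.82). Its paralogue Tgif2 had a start peak in WT rep 2 (fold 5.18) and further peaks near Rab5if in WT rep 2 (fold 3.55) and miR-187 rep 1 (fold 4.35). Smurf1, a ubiquitin ligase that targets SMADs and receptors, had 2 peaks in WT rep 1 (fold 5.71 and 7.14) and 1 ahead of its start in miR-187 rep 1 (fold 5.11). Its relative Smurf2 had 1 in WT rep 1 (fold 4.82) and 3 in WT rep 2 (fold 4.84, 4.28 and 5.92). Of these, the WT rep 1 peak and 1 WT rep 2 peak sat at the far end of the gene near Cep95. Skil had 1 peak each in WT rep 1 (fold 5.68), WT rep 2 (fold 5.87) and miR-187 rep 1 (fold 5.73), at 3 different places.

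The Id genes encode inhibitors of basic helix-loop-helix factors and are direct BMP targets, and 2, 3, 1 and 1 of the 3 had a peak (66.7%, 100%, 33.3% and 33.3%, difference -1.50, exact permutation p of 0.333, n = 2 each). Within 1 kb of a gene end, Id2 and Id3 had a peak in both WT libraries and in neither miR-187 library. At Id2 the fold was 3.96 in WT rep 1 (chr12:25096037-25096372) and 3.58 in WT rep 2 (chr12:25096098-25096397). At Id3 it was 4.42 in WT rep 1 (chr4:136143654-136143925) and 3.68 in WT rep 2 (chr4:136143701-136143918). The local background under these peaks was 2.28 and 4.86 reads at Id2 and 3.3 and 6.60 at Id3, below pileups of 12, 20, 18 and 27 reads. No miR-187 peak was called at either start, and the part of depth in this was not tested.

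Id3 had further upstream and downstream peaks in WT only, 3.29 kb away in WT rep 1 (fold 5.14) and 9.10 and 3.06 kb away in WT rep 2 (fold 4.55 and 4.25). Id2 had a further WT rep 2 peak 1.37 kb beyond the gene (fold 4.18). Id1 differed from the other 2, with no peak within 2 kb of the gene. A region 7.88 kb away was shared by WT rep 2 (fold 4.38, chr2:152728181-152728429) and miR-187 rep 1 (fold 4.02, chr2:152728293-152728512), with summits 6 bp apart. The miR-187 rep 2 peak lay 5.26 kb away on the other side (fold 6.40), and 2 further peaks of WT rep 2 lay 6.47 and 2.27 kb away (fold 3.76 and 3.99). In all, the 3 Id genes held 3 and 8 peaks in WT and 1 and 1 in miR-187, where all gene windows held 7694 and 10434 in WT and 6346 and 1123 in miR-187. With lists of equal length the Id genes with a peak were 0, 0, 0 and 1, so the direction turned.

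The 5 extracellular and membrane modulators had a peak at 3, 2, 2 and 1 genes (60.0%, 40.0%, 40.0% and 20.0%, difference -1.0, exact permutation p of 0.667, n = 2 each). With lists of equal length this difference turned to 0.500. Nog had the highest pair of folds among the regions shared by the WT libraries, about 1.08 kb outside the gene, with a fold of 6.77 in WT rep 1 (chr11:89303501-89303728) and 6.83 in WT rep 2 (chr11:89303306-89303782) and summits 6 bp apart. Both were in the upper part of their lists, at the 88.9th and 87.4th percentile of −log10 q, and no miR-187 peak was found at Nog. Bambi encodes a membrane pseudoreceptor that dampens signalling. It had a region inside the gene in WT rep 2 (fold 5.09), miR-187 rep 1 (fold 7.14) and miR-187 rep 2 (fold 5.63), the only pathway gene besides Ski where both miR-187 libraries overlapped. The WT rep 1 peak of Bambi was elsewhere, 7.41 kb outside the gene (fold 6.62). Ltbp1, which encodes a protein that holds latent TGF-beta in the matrix, had 2 peaks at its start in WT rep 1 (fold 4.88 each) and 1 deep in the gene in miR-187 rep 1 (fold 6.52).

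**Figure D3:**
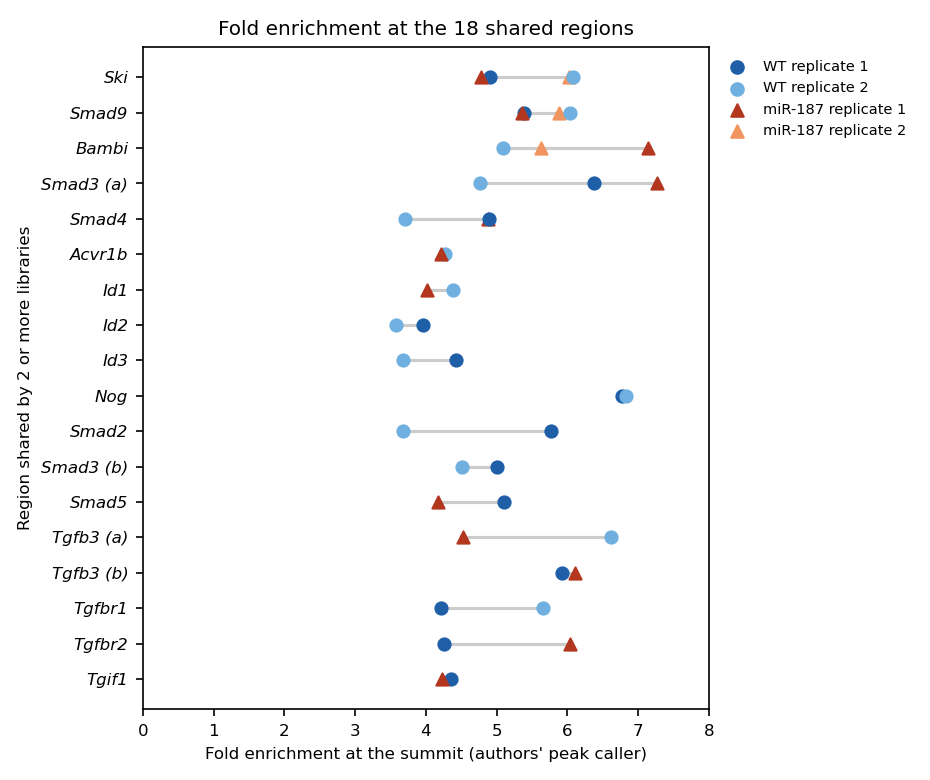
Fold enrichment at the summit from the peak caller (horizontal axis, no unit) in each library with a peak, for the 18 regions of pathway genes (vertical axis) with peaks of 2 or more libraries. A grey line joins the libraries of a region, and (a) and (b) mark 2 regions of 1 gene. Ski and Smad9 have all 4 libraries, and neither group is higher throughout at the regions where both are present.

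Peaks that overlapped by at least 1 bp were joined into 90 regions at the pathway genes. Most of them, 72, were in 1 library, 13 were in 2, 3 in 3 and 2 in 4. The 18 shared regions were 20.0% of the 90, against 32.4% of the 20919 regions of the whole lists. They fell on 16 of the 43 genes (37.2%, against 34.5% of all genes), which is near the background. Regions with peaks of both WT libraries but of no miR-187 library numbered 6, at Tgfbr1, Smad2, Smad3 (the one inside the gene), Id2, Id3 and Nog, which is 6.67% of the 90 against 8.62% of all regions, and 4 further regions joined both WT libraries and a miR-187 library. The 6 became 0 with lists of equal length and 1 with a −log10 q of at least 5. No region joined the 2 miR-187 libraries alone, a pattern of 0.158% of all regions. As pairs, WT reps 1 and 2 had 10 regions in common of 71 (14.1%), WT rep 1 and miR-187 rep 1 had 8 of 50 (16.0%), and WT rep 2 and miR-187 rep 1 had 8 of 69 (11.6%). Over all regions these shares were 24.4%, 20.7% and 26.3%. The pairs with miR-187 rep 2 had 3 of 31 with miR-187 rep 1 (9.68%, against 5.43% over all regions), 2 of 36 with WT rep 1 and 3 of 54 with WT rep 2 (5.56% each, against 4.61% and 4.93%). These shares depend on the lengths of the lists, so they are given as a description.

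At the 10 regions in both WT libraries the fold was higher in WT rep 1 in 6 and in WT rep 2 in 4. It was higher in WT rep 1 than in miR-187 rep 1 at 5 of 8 regions and higher in WT rep 2 than in miR-187 rep 1 at 5 of 8. The folds at shared regions thus went in both directions between the groups as they did within WT. The fold is relative to a background that differs between libraries, so these counts are a description.

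The pathway peaks were of middling strength in their lists. Their fold had a median of 4.89 in WT rep 1 (range 3.57 to 7.14), 4.37 in WT rep 2 (3.3 to 6.83), 5.11 in miR-187 rep 1 (4.02 to 7.26) and 5.88 in miR-187 rep 2 (4.73 to 6.63). All peaks had medians of 5.18, 5.0, 5.56 and 5.41. The median percentile of −log10 q was 43.9, 34.9, 42.9 and 66.1, so miR-187 rep 2, with the shortest list, was the one in which the pathway peaks ranked in the upper part. The reads piled up at a summit had a median of 9.0, 15.0, 10.0 and 7.0, which shows how few reads stood behind each peak. At these depths a gene without a peak may still be open.

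A summit within 1 kb of a gene end was found at 12, 18, 16 and 2 genes, or 27.9%, 41.9%, 37.2% and 4.65%. The shares over all genes were 21.0%, 29.9%, 19.4% and 3.07%. The WT mean was 15.0 ± 4.24 and the miR-187 mean 9.0 ± 9.90 (SD, n = 2 each, difference -6.00, exact permutation p of 0.667). In miR-187 rep 1 more pathway genes had such a peak than in WT rep 1, and without miR-187 rep 2 the difference was 1.00. With a boundary window of 3 kb the counts were 17, 24, 16 and 2 genes, and the difference was -11.5 (exact permutation p of 0.333). Among the 32 genes with an annotated start window, 11 of 24, 16 of 32, 10 of 18 and 1 of 5 summits (45.8%, 50.0%, 55.6% and 20.0%) lay within 1 kb of a start of the gene. For all peaks the share within 1 kb of some start was 38.7%, 44.5%, 45.9% and 33.5%. The pathway summits were limited to those within 10 kb of a gene, while all peaks include those far from any gene. The shares are therefore not a like comparison.

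**Figure D4:**
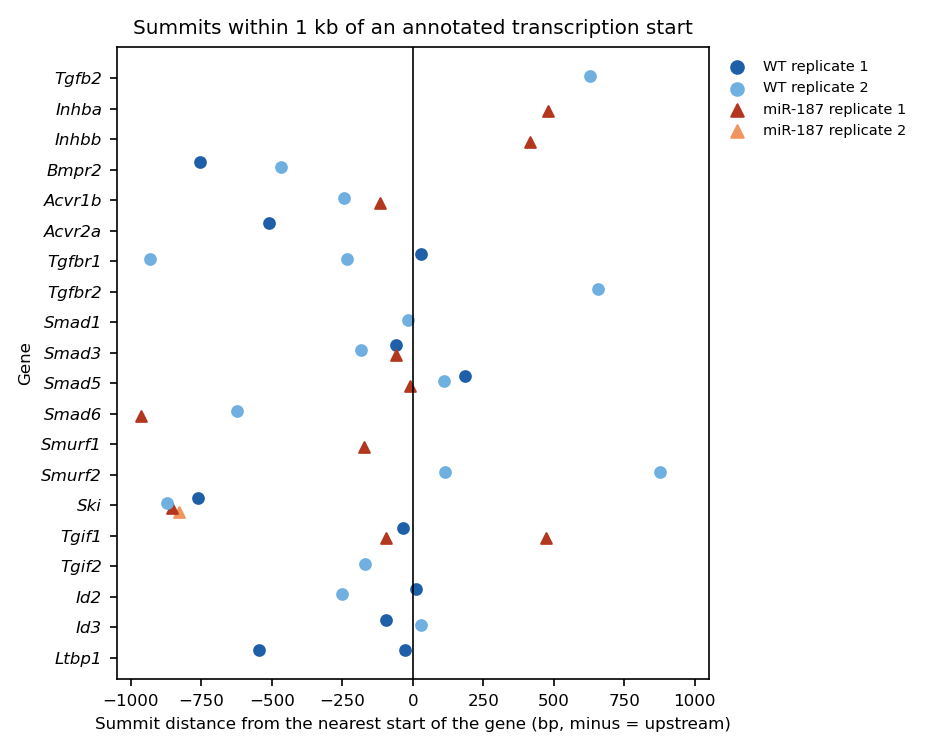
Distance of each peak summit from the nearest annotated start of its gene (horizontal axis, bp, negative upstream) for the 20 pathway genes (vertical axis) with a summit within 1 kb of a start. Each point is 1 peak, 38 in all, circles for WT and triangles for miR-187. Ski is the only gene with all 4 libraries and the only one with a point of miR-187 rep 2.

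A wider list of 64 other pathway genes was counted in the same way. It had a peak at 26, 32, 21 and 4 genes (40.6%, 50.0%, 32.8% and 6.25%), close to the shares over all genes given above. Its windows were shorter than those of the 43 genes, with a median of 36.8 kb against 66.2 kb. Counted per length they held 8.87, 12.5, 7.48 and 1.11 peaks per Mb. The windows of the 43 genes held 7.97, 12.9, 6.94 and 1.80, and all gene windows 5.97, 8.10, 4.93 and 0.872. A density above that of all genes was therefore not particular to the 43 genes. The WT mean was 29.0 ± 4.24 genes with a peak and the miR-187 mean 12.5 ± 12 (SD, n = 2 each, difference -16.5, exact permutation p of 0.333). This difference turned to 1.00 with lists of equal length and was -8.00 without miR-187 rep 2. Eng, the endoglin co-receptor gene of endothelium, had a peak in both WT libraries and in neither miR-187 library, as did Bmp8a, Gdf15, Amh, Zfyve16, Usp15, Pmepa1 and Tab1, 8 of 64 in all (12.5%, against 9.04% of all genes). Acvrl1, which encodes the endothelial receptor ALK1, had a peak in both WT libraries and in miR-187 rep 1. Fstl1, Hgs and Rnf111 had a peak in all 4 libraries (4.69%, against 3.36% of all genes), and Bmp6 was among the 26 genes with none (40.6%, against 41.5%). These shares were near those of all genes.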

How the data were processed

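ATAC-seq read pairs were processed by the authors. The submitters' processing notes name FastQC, Bowtie2 2.2.6, SAMtools 1.10, deepTools 3.3.2, MACS2 2.2.7.1, ChIPseeker, DiffBind, HOMER 4.11 and mm10, without roles. Each library had its own deposited list of 10 columns with a score, a fold enrichment (ratio), and −log10 p and −log10 q per peak, all from the authors' peak caller and used as deposited. The score equals 10 times −log10 q.

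Gene positions came from RefSeq GRCm38.p6, the same build as mm10. The 6, 20, 6 and 0 peaks on other scaffolds were left out. Gene windows reached 10 kb beyond each end, and boundary windows 1 kb. The table of all genes holds no strand, so a boundary may be either end. Start windows were matched by symbol for 32 of the 43 genes (42 windows), and Bmp2, Bmp7, Tgfb3, Tgfbr3, Smad2, Smad4, Smad7, Skil, Id1, Bambi and Nog had none. The design planned sequences centred on summits, which need a genome, so start windows of shared regions were printed instead. Pileup and background were solved from fold and −log10 p within 0.0005 for 100% of peaks, with reads extended to 200 bp, and tested on simulated data. Pileups, backgrounds and read densities are therefore inferred, and the total reads of a library were not derived. Group means were compared by a 2-sided exact permutation test over 6 assignments. Intervals are 95% Wilson intervals.

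The rule that lists the 43 genes uses no measured value, but these genes, the other lists and the tests were chosen with earlier results of these data known, so the choice was not independent of them. Every listed gene was accounted for, and genes with shared regions or a WT-only or miR-187-only pattern were given with values per library. Alternatives were a −log10 q of at least 5, equal list lengths, a 2 kb gene and 3 kb boundary window, a 50% reciprocal overlap, summits within 250 bp, a replicate block, leaving out each library, and, added after seeing the data, thinned depth and counts over genes in place of regions. Software was matplotlib 3.10.9, statsmodels 0.14.6, scipy 1.17.1, pandas 2.3.3 and numpy 2.4.6 under Python 3.11.15.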

Additional observations from a re-analysis of the deposited data

How the results depend on the processing

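With 2 libraries a group the exact permutation test cannot give a p under 0.05, and depth inferred from peaks limits every absence. With lists of equal length the differences (miR-187 minus WT) turned: 3.50 pathway genes with a peak, 3.50 peaks, 2.00 genes with a boundary peak, 1.00 of the other pathway genes, 1.00 receptor, 2.00 SMAD, 0.500 target and 0.500 modulator genes, while ligands were at 0 and intracellular regulators kept their direction at -0.500. Regions in both WT lists alone were then 0 and in both miR-187 lists alone 1, genes with a shared region 2, and genes with a peak in both libraries of 1 group alone 0 for WT and 1 for miR-187. With a −log10 q of at least 5, WT-only regions were 1, genes with a shared region 4 and WT-only genes 2. Thinned depth, added after seeing the data, gave 0.170 for boundary genes and -0.720 for genes with a peak. In each of these cases the cause was not tested.

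Leaving out each library in turn gave -20.5 to -5.50 genes with a peak, -33.5 to -13.5 peaks, -13.0 to 1.00 boundary genes (1.00 without miR-187 replicate 2), -25.0 to -8.00 other pathway genes, -5.0 to 0 SMADs (0 without miR-187 replicate 2), -4.50 to -1.50 ligands and -3.50 to 0.500 intracellular regulators (0.500 without miR-187 replicate 2). There were 6 to 42 WT-only regions, 0 to 15 regions of miR-187 alone, 8 to 16 genes with a shared region, 10 to 16 WT-only genes and 0 to 3 miR-187-only genes. A lone library left in a group makes the counts particular to that group larger by construction. WT-only regions were 42 without WT replicate 1 and 23 without WT replicate 2, and miR-187-only regions 15 without miR-187 replicate 2 and 4 without miR-187 replicate 1. Genes with a shared region were 8, 9 and 10 without WT replicate 1, WT replicate 2 and miR-187 replicate 1, and WT-only genes were 16 without miR-187 replicate 1.

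A replicate block gave the same differences, -13.0 genes, -23.5 peaks, -6.00 boundary genes and -16.5 other pathway genes, with a sign-flip p that cannot go below 0.5. The replicate numbers mark no stated batch. The deviations of same-numbered libraries from their group means had a correlation of -0.0255 over 20919 regions. Of these regions 67.6% were in 1 library only, so this value cannot show whether same-numbered libraries shared a batch. Of 76 such alternatives over the main counts, 51 kept their direction (differences) or stayed within 1.5 times the value (counts), 19 moved and 6 turned. The 51 include differences that became much smaller, such as -0.720 against -13.0 genes and -1.38 against -23.5 peaks at thinned depth. They also include those of the replicate block, which equal the main differences by construction, and counts of 0 that stayed at 0.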
